A study of Mus musculus with 4 samples.

Results

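The genes described here encode the proteasome, the barrel-shaped protease that degrades proteins tagged with ubiquitin. They were taken by symbol, as every row that starts with Psm, a letter from a to g and a digit, with Psmb8, Psmb9 and Psmb10 left out. The pattern took 46 of the 23420 rows. It holds 16 genes of the core particle (Psma and Psmb), 6 ATPases of the base (Psmc), 14 other genes of the lid, the base and base assembly (Psmd), 4 activators (Psme), and 5 genes for the inhibitor Psmf1 and the assembly chaperones Psmg1 to Psmg4. The remaining row, Psmc3ip, encodes a partner of meiotic recombinases and no proteasome subunit, and it is given apart. The rule used symbols only and no measured value, but the genes were chosen with earlier results of these data known.

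The libraries are RNA-seq of cultured mouse large pre-B cells, a single line of cycling B cell precursors. All groups carried the same genotype, Irf4/8-/-, which lacks the transcription factors Irf4 and Irf8, and were grown with interleukin 7 at 10 ng/ml on OP9 stromal feeder cells. The first group received a retrovirus with GFP and a hairpin against Myb (shMyb, 2 libraries), and the control group the same kind of virus with a hairpin against luciferase (shLuc, 2 libraries). Cells were kept for 72 hours after transduction and sorted for GFP. Duplicates came from separate sets of 12 wells of the same line, and the p-values therefore reflect variation among duplicates only, not among lines or animals.

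The libraries labelled shMyb held 38318335 and 36573743 counts, against 40701550 and 44682954 in shLuc. Myb itself was at 617 and 639 CPM (counts per 1000000, with library sizes scaled by TMM) in the libraries labelled shMyb and at 616 and 600 CPM in shLuc, with no overlap but no call (log2 fold change 0.046, edgeR adjusted p = 0.283). With library totals, with the trend with expression level taken out, or with the trends with transcript length and GC content taken out, it was called higher (0.11, 0.17 and 0.097). Directions below are therefore tied to the labels of the libraries, not to a measured loss of Myb RNA. All 10 large pre-B markers had counts in every library. Of these 5 were called higher and 4 lower, with a summed level of 7502 to 7723 CPM in shMyb and 7759 to 7911 CPM in shLuc. The 14 feeder markers summed to 60.3 to 67.6 CPM in shMyb and 72.4 to 89.1 CPM in shLuc, with none at 0, and of 13 tested 4 were lower and 2 higher. The 10 myeloid markers found in the files summed to 8.78 to 10.5 CPM in shMyb and 3.83 to 5.01 CPM in shLuc, and of 8 tested 5 were higher and 0 lower. Among all tested genes 31.7% were called lower and 30.6% higher, and the 30.8% lower among the feeder markers was near that share. The share does not give the size of the differences. The feeder markers called lower ran from -1.80 (Cxcl12) to -0.74 (Acta2) in log2 fold change, and those called higher were Sparc (0.42) and Postn (1.01). Elane was at 0 in every library, and Mpo was at 0 or 1 count. The part of these cells in the results below was not tested. In bulk RNA, fewer cells of a type and less RNA per cell cannot be told apart.

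As background, the core particle is a stack of rings built from alpha and beta subunits, and the beta rings hold the proteolytic sites. The regulatory particle docks on the core. Its ATPase ring unfolds the substrate, and its lid and base recognise and remove ubiquitin. Psme proteins form other caps that can dock on the core in its place. In mammals the transcription factor Nfe2l1 raises subunit genes together when proteasome activity falls short, and dividing lymphocytes rely on the proteasome to clear cyclins and CDK inhibitors.

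The promoters of 5 genes are shown, because the results turn on these genes. They include the catalytic subunits Psmb5 and Psmb6, but not the catalytic subunit Psmb7, which had no promoter entry. The others are the chaperone gene Psmg1, which fell most, the lid gene Psmd8, which was not called, and the activator gene Psme4, which rose. All 5 are RefSeq promoters of build GRCm38.p6, 250 bases before to 50 after the start site, 5′ to 3′ on the gene's strand. They lie at chr14:54617946-54618245 (minus strand), chr11:70525107-70525406 (plus strand), chr16:95990911-95991210 (minus strand), chr7:29180624-29180923 (minus strand) and chr11:30771525-30771824 (plus strand). Capitals mark the letters TGACNNNGC, the core of the antioxidant response element that Nfe2l1 and Nfe2l2 bind, and the ETS letters GGAAGT and CGGAAG, on either strand.
Psmb5: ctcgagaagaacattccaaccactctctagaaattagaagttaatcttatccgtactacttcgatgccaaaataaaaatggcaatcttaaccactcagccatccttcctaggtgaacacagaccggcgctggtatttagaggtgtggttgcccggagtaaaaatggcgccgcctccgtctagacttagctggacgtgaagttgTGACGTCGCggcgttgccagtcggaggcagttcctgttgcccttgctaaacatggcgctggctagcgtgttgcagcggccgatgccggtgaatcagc
Psmb6: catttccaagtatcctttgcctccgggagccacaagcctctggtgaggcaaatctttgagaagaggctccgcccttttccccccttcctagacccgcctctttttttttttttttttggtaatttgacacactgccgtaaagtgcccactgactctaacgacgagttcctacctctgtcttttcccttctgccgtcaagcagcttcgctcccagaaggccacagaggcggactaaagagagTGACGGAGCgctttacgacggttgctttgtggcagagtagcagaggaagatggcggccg
Psmg1: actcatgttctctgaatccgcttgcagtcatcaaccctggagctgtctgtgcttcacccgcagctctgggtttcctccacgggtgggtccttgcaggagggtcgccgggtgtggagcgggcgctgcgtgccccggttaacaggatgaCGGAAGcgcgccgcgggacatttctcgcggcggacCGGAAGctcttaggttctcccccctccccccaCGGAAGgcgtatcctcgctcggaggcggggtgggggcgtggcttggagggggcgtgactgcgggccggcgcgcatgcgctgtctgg
Psmd8: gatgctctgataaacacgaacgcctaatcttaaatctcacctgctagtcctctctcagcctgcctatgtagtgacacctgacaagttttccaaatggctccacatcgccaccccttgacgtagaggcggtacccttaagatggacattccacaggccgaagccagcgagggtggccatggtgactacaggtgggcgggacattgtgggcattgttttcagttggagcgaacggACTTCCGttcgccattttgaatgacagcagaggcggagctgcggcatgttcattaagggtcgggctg
Psme4: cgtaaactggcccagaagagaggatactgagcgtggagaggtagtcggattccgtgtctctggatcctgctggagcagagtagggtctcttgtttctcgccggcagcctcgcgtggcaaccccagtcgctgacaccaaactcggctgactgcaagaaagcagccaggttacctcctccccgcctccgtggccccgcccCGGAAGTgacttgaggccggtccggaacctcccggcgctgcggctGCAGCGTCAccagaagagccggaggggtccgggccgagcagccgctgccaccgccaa

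Psmb5, Psmb6 and Psme4 each hold 1 copy of the antioxidant response letters, close to the start site. The positions, counted to the leftmost base, are -47 in Psmb5, -9 in Psmb6 and -7 in Psme4. Psmg1 holds the letters CGGAAG at 3 places, and Psmd8 and Psme4 hold both ETS letters at 1 overlapping place. The promoter table had an entry for 37 of the 45 proteasome genes, with 40 promoters, and none for Psmb7. The antioxidant response letters were in 15% of these 40 promoters, in 14.5% of the promoters of all tested genes and in 12.4% of all 32851 promoters in the table. The ETS letters GGAAGT were in 55%, against 28.3% of promoters of tested genes and 23.8% of all promoters. CGGAAG, which shares the letters GGAAG with it and overlaps it in CGGAAGT, was in 57.5%, against 30.5% and 16.9%. The Myb letters AACNG were in 85%, against 78.1% and 80.3%, the NF-Y letters CCAAT in 32.5%, against 37.6% and 37.4%, and the E-box CACGTG in 7.5%, against 9.91% and 7.15%, all on both strands. At least 1 of the ETS letter sets was in promoters of 28 genes, of which 24 fell, a share close to the 33 that fell among all 37 genes with a promoter. The others are Psmd8, Psmd9, Psme4 and the untested Psmb11. A match describes letters and not a bound site.

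Nearly all proteasome genes fell in the libraries labelled shMyb. Of the 45 genes, 43 had enough counts to be tested, and of these 40 fell, 1 rose and 2 were not called. Among all 12610 tested genes 31.7% were called lower and 30.6% higher, 62.2% in all. The groups did not overlap, with both shMyb libraries below both shLuc libraries, in 40 of the 43 genes, against 41.2% of all tested genes. They did not overlap in the other direction in 1 gene, against 41.0%. The median log2 fold change over the 43 genes was -0.28, which is 0.825 times the shLuc level, beside 0.0048 over all tested genes. The fold changes of the proteasome genes lay close together, with an interquartile range of 0.11 on the log2 scale, beside 0.49 over all tested genes. Between 100 and 300 CPM it was 0.095 for 30 proteasome genes and 0.33 for all tested genes. The 45 genes together took 0.628% and 0.624% of all counts in the libraries labelled shMyb, against 0.704% and 0.721% in shLuc. Both shMyb sums lay below both shLuc sums.

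**Figure D1:**
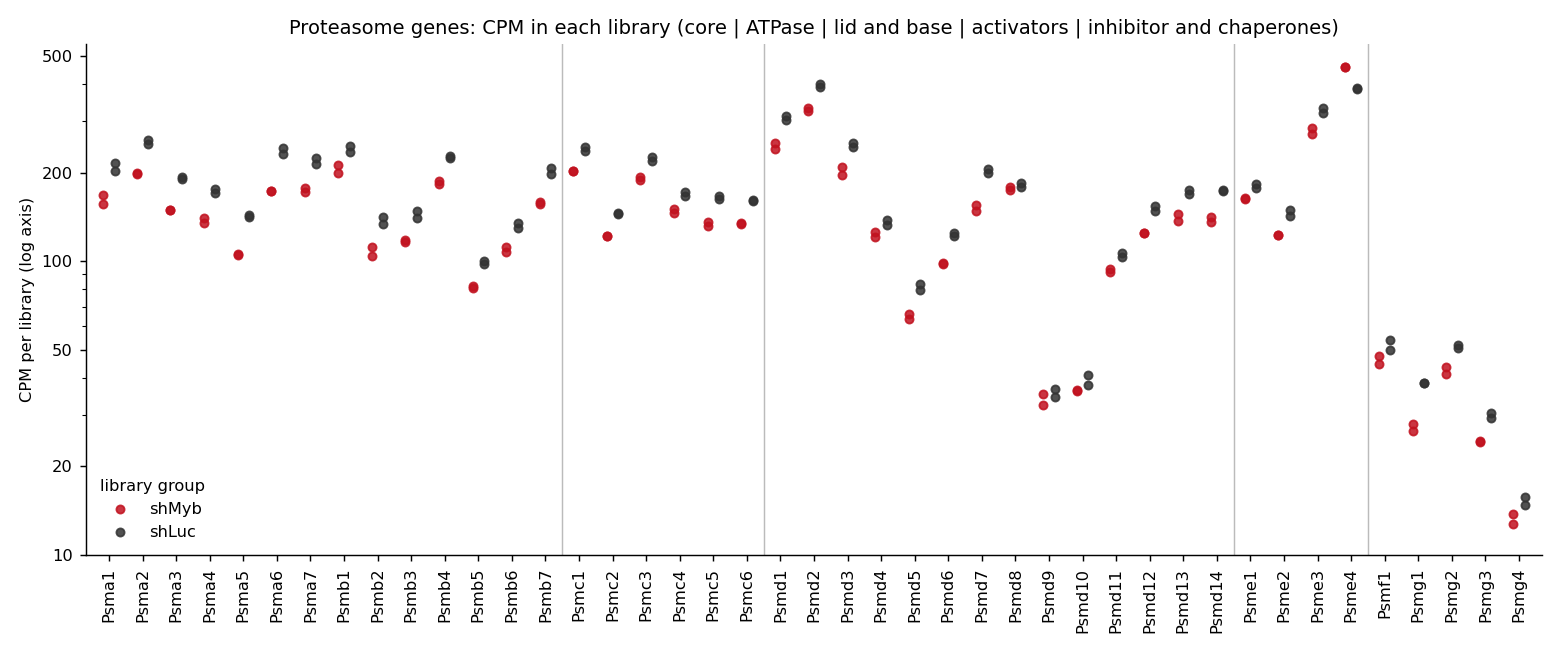
CPM (log axis) of the 43 tested proteasome genes in each library, shMyb in red to the left of shLuc in dark grey, by class. The 2 libraries of a group lie close together for each gene, and the shMyb points lie below the shLuc points in 40 genes, above them for Psme4 and among them for Psmd8 and Psmd9.

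The 14 tested core genes all fell, at a median log2 fold change of -0.34. The 7 alpha genes, whose proteins form the outer rings and the gate, ran from -0.45 to -0.33 with a median of -0.37. The 7 beta genes ran from -0.36 to -0.22 with a median of -0.29, and the ranges of the rings overlapped. Psma6 (chromosome 12, 55384222 to 55418454, plus strand) had 173 and 173 CPM in shMyb and 231 and 242 CPM in shLuc. Its log2 fold change was -0.45 (SE 0.037, edgeR adjusted p = 1.26e-10). Psma5 (chromosome 3, 108256926 to 108279974, plus strand) had 105 and 105 CPM in shMyb and 141 and 144 CPM in shLuc, a log2 fold change of -0.44 (SE 0.037, edgeR adjusted p = 2.36e-10). These alpha genes stood at 0.731 and 0.739 times the shLuc level, with no overlap between the groups. The beta gene Psmb1 (chromosome 17, 15475021 to 15499751, minus strand), a non-catalytic subunit, had the smallest core difference. It had 212 and 200 CPM in shMyb and 235 and 246 CPM in shLuc (log2 fold change -0.22, SE 0.039, edgeR adjusted p = 2.53e-05). Exons of Psma4, Psma5, Psmb7, Psmc3, Psmd1, Psmd3, Psmd9, Psmd13 and Psme1 overlap a gene on the opposite strand, and those of Psmb5, Psmd1 and Psmg3 one on the same strand. The strand setting of the counting is unknown here, so these levels carry that uncertainty.

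The 3 catalytic beta genes encode the proteolytic sites: Psmb5 cuts after hydrophobic residues, Psmb6 after acidic ones and Psmb7 after basic ones. Psmb5 (chromosome 14, 54614119 to 54618022, minus strand) had 82.3 and 81.1 CPM in shMyb and 97.8 and 100.3 CPM in shLuc (log2 fold change -0.28, SE 0.038). Psmb6 (chromosome 11, 70525367 to 70527858, plus strand) had 107 and 112 CPM in shMyb and 129.7 and 134 CPM in shLuc (-0.27, SE 0.038). Psmb7 (chromosome 2, 38588036 to 38644087, minus strand) had 157 and 159 CPM in shMyb and 197 and 207 CPM in shLuc (-0.36, SE 0.037). All 3 fell, to between 0.779 and 0.828 times the shLuc level, and the groups did not overlap. Pseudogenes named after Psmb5, Psmb6 and Psmb7 are annotated, 4 in all, so reads of these genes may be split. Psmb8 and Psmb9, which take the place of Psmb5 and Psmb6 in the inducible proteasome of immune cells, fell as well (-0.34 and -0.28), and Psmb10, the counterpart of Psmb7, was not called (-0.096, edgeR adjusted p = 0.0599). Without shLuc replicate 1 or without shMyb replicate 1 Psmb10 was called lower (-0.18 and -0.13), as with no filter on low counts (-0.11) and with the crossed block (-0.095). Per length, the Psmb7 level was 2.35 and 2.48 times that of Psmb10 in shMyb and 2.95 and 2.85 times in shLuc. That difference in ratio was not tested. The corresponding ratios of Psmb5 to Psmb8 were 0.526 and 0.547 in shMyb and 0.513 and 0.515 in shLuc. Psmb6 to Psmb9 stood at 1.60 and 1.76 in shMyb and 1.67 and 1.67 in shLuc.

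The remaining 2 core genes are restricted in tissue and were not tested. Psma8, an alpha gene of the testis, had no count in any library, and Psmb11, the beta gene of the thymic epithelium, had 1 count in shMyb replicate 2 and none elsewhere. A count of 0 allows up to 3 counts, which is 0.0770 and 0.0799 CPM in shMyb and 0.0751 and 0.0689 CPM in shLuc, for counting error only.

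**Figure D2:**
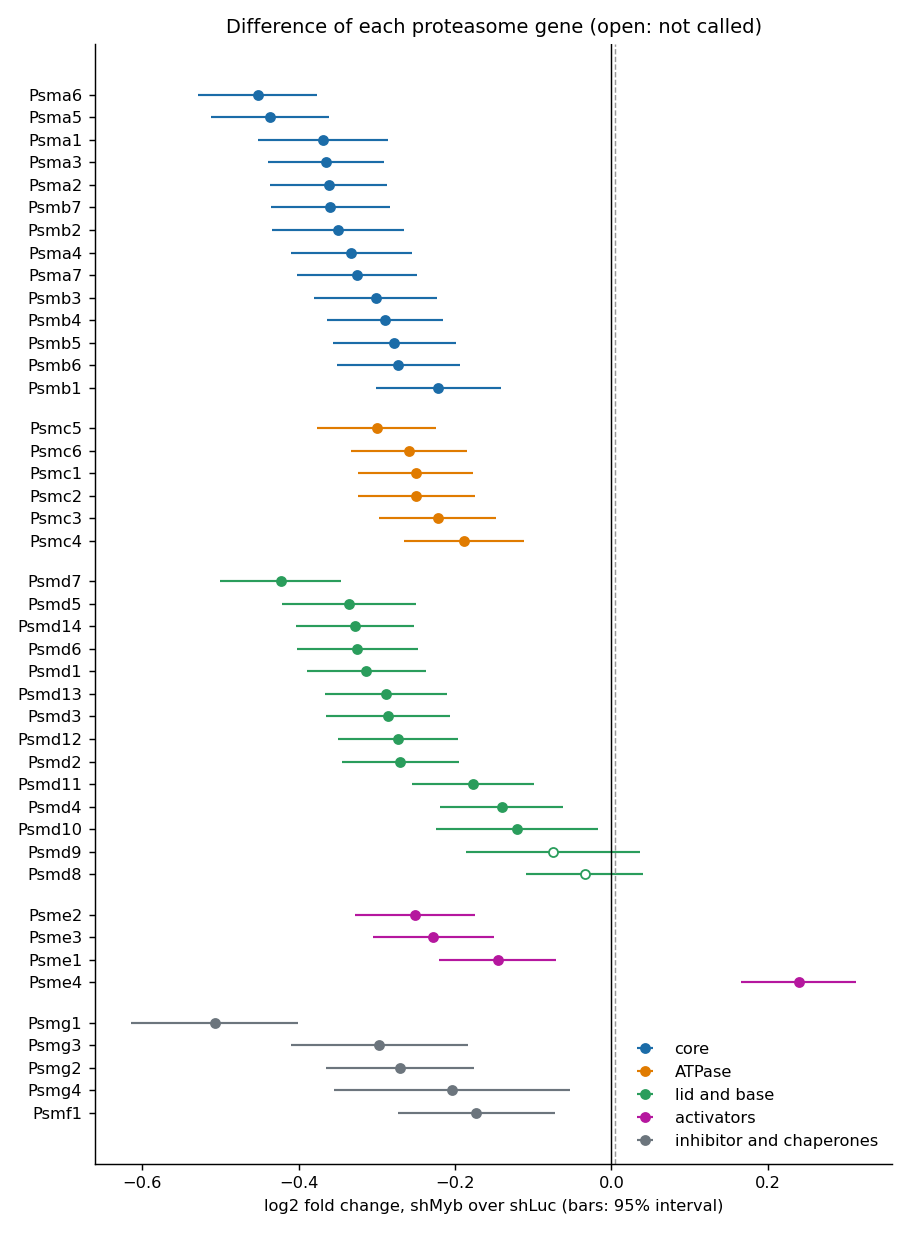
Log2 fold change of each tested proteasome gene, shMyb over shLuc, with its 95% interval, by class; the dashed line is the median of all tested genes, 0.0048. All but Psme4 lie below 0, and the open points Psmd8 and Psmd9 have intervals that include 0.

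The 6 ATPase genes, which form the unfolding ring, all fell within a narrow range, from -0.30 to -0.19 on the log2 scale, with a median of -0.25. Psmc5 (chromosome 11, 106256154 to 106263120, plus strand) had 132 and 135 CPM in shMyb and 162 and 167 CPM in shLuc, a log2 fold change of -0.30 (SE 0.037, edgeR adjusted p = 1.52e-07). Psmc6 (chromosome 14, 45329788 to 45349705, plus strand) had 135 and 133 CPM in shMyb and 161 and 159.7 CPM in shLuc (-0.26, SE 0.036, edgeR adjusted p = 1.09e-06). Psmc4 (chromosome 7, 28041707 to 28050101, minus strand) was farthest from the class median, with 146 and 150.4 CPM in shMyb and 166 and 172 CPM in shLuc (-0.19, SE 0.037). In all 6 genes both shMyb libraries lay below both shLuc libraries. Psmc1, Psmc2 and Psmc3 were at -0.25, -0.25 and -0.22. Psmc3ip, the gene that shares only the symbol, was not called (-0.12, edgeR adjusted p = 0.134).

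Of the 14 Psmd genes 12 fell and 2 were not called, with a median log2 fold change of -0.28. Among the 8 lid genes, whose proteins form a horseshoe around the deubiquitylating site, 7 fell. Psmd7 (chromosome 8, 107580381 to 107588464, minus strand), which pairs with the deubiquitylase, had 155 and 148 CPM in shMyb and 199.6 and 206 CPM in shLuc (log2 fold change -0.42, SE 0.038, edgeR adjusted p = 6.32e-10). Psmd14 (chromosome 2, 61711694 to 61800376, plus strand), the deubiquitylase itself, had 141 and 136 CPM in shMyb and 172 and 175 CPM in shLuc (-0.33, SE 0.037, edgeR adjusted p = 3.56e-08). Psmd8 (chromosome 7, 29174188 to 29180701, minus strand), a lid subunit that joins late in assembly in yeast, had 179 and 175 CPM in shMyb and 178 and 184 CPM in shLuc, and here the groups overlapped. In Psmd8 the difference was -0.034 on the log2 scale (edgeR adjusted p = 0.424), and its 95% interval ran from -0.11 to 0.041. It was above 0, and not called, with library totals and with either trend taken out. That interval lies above the fold change of each of the other 7 lid genes, which ran down to -0.42 from -0.18 in Psmd11, but the difference between genes was not tested.

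The 3 base genes other than ATPases all fell. The scaffold genes Psmd1 and Psmd2, which bind ubiquitin-like domains and substrates, were at -0.31 and -0.27, and the ubiquitin receptor gene Psmd4 was at -0.14 (edgeR adjusted p = 0.00262). With library totals the Psmd4 call ended (-0.077, adjusted p = 0.0768). The Psmd genes Psmd5, Psmd9 and Psmd10 encode chaperones that help build the base and leave the finished particle. Psmd5 fell (-0.34), Psmd9 was not called (-0.075, edgeR adjusted p = 0.233), and Psmd10, also known as gankyrin, was called lower by the least margin (-0.12, edgeR adjusted p = 0.0395). Psmd10 had 36.4 and 36.1 CPM in shMyb and 37.9 and 40.9 CPM in shLuc. Its call ended under 11 of the 16 other settings, among them leaving out shLuc replicate 2 or either shMyb replicate (-0.13 to -0.074). With the trends with transcript length and GC content taken out its sign turned (0.029, not called). Psmd9 was called lower without shMyb replicate 2 (-0.14, adjusted p = 0.0465).

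The 4 activator genes did not move together, as 3 fell and Psme4 rose. Psme4 (chromosome 11, 30771726 to 30880361, plus strand) encodes the large nuclear cap PA200, which is linked to histone turnover and DNA repair. It had 457 and 458 CPM in shMyb and 389 and 385 CPM in shLuc. It stood at 1.18 times the shLuc level, a log2 difference of 0.24 (SE 0.036, edgeR adjusted p = 2.64e-06) with a 95% interval of 0.17 to 0.31. Both shMyb libraries lay above both shLuc libraries, and under 16 other settings the value stayed called, between 0.22 and 0.33. Psme1 and Psme2 encode the subunits of the PA28 cap that interferon raises. Psme1 (chromosome 14, 55578123 to 55581529, plus strand) had 162 and 164 CPM in shMyb and 178 and 183 CPM in shLuc (-0.15, SE 0.036, edgeR adjusted p = 0.00125). Psme2 (chromosome 14, 55587441 to 55591113, minus strand) had 123 and 122 CPM in shMyb and 143 and 149 CPM in shLuc (-0.25, SE 0.037, edgeR adjusted p = 2.63e-06). Psme3 (chromosome 11, 101316213 to 101323537, plus strand), the nuclear PA28 subunit, had 284 and 271 CPM in shMyb and 318 and 332 CPM in shLuc (-0.23, SE 0.038, edgeR adjusted p = 1.15e-05). The direction of the class sum turned with the scaling. The activators took 0.104% and 0.104% of raw counts in shMyb and 0.101% and 0.102% in shLuc, whereas on the TMM scale they summed to 1026 and 1015 CPM in shMyb and 1028 and 1049.5 CPM in shLuc. On raw counts, the core genes took 0.212% and 0.210% in shMyb and 0.251% and 0.259% in shLuc. A copy of Psme2 named Psme2b is annotated and has no row here, so reads of Psme2 may be split.

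The genes for the inhibitor and the assembly chaperones, expressed at lower levels, all fell. Psmg1 (chromosome 16, 95979933 to 95990960, minus strand), which with Psmg2 seeds the alpha ring, had the largest fall of the 43 genes. It had 27.8 and 26.3 CPM in shMyb and 38.5 and 38.6 CPM in shLuc (log2 fold change -0.51, SE 0.052, edgeR adjusted p = 6.97e-09). Psmg2 (chromosome 18, 67641599 to 67654162, plus strand) had 43.4 and 41.2 CPM in shMyb and 51.6 and 50.5 CPM in shLuc (-0.27, SE 0.046, edgeR adjusted p = 1.70e-05), and its call ended with the trends with transcript length and GC content taken out (-0.092, adjusted p = 0.0835). Psmg3 and Psmg4, which form a second chaperone pair, were at -0.30 and -0.20, and Psmf1, which binds the core and was first described as its inhibitor, was at -0.17. The groups did not overlap in any of the 5. The Psmg4 call rested on 12.8 to 15.7 CPM and ended under 6 of the 16 other settings, among them DESeq2 (adjusted p = 0.158). Without shLuc replicate 2, Psmf1 and Psmg4 lost their calls (-0.12 and -0.17), and without shMyb replicate 1 Psmg4 did (-0.16). With library totals only 3 of the 5 were called lower.

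**Figure D3:**
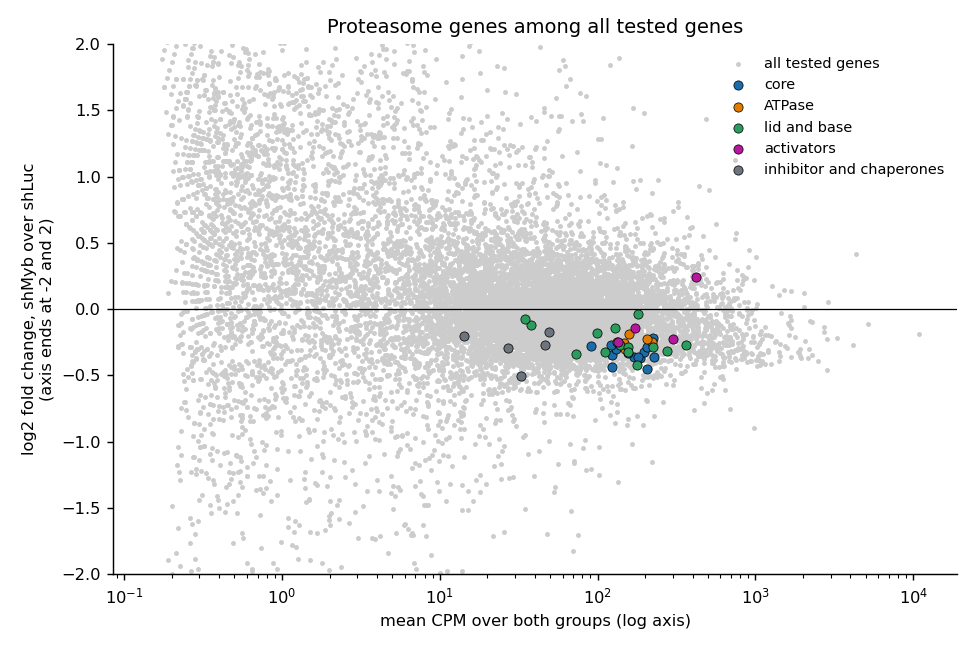
Log2 fold change, shMyb over shLuc, against mean CPM (log axis) for all 12610 tested genes in grey and the 43 proteasome genes by class; 231 genes lie beyond the ends of the vertical axis at -2 and 2. The proteasome genes form a tight band below 0, with Psme4 above it.

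Level and transcript length moved with the fold changes of all genes, and their values stand here beside the result. Among the 1941 tested genes with a mean of 100 to 300 CPM, the range that holds 30 of the 43 proteasome genes, the median log2 fold change was -0.053 and 44.3% were called lower, while the 30 proteasome genes had a median of -0.30 and 29 fell. Tested genes whose principal coding transcript is under 1000 bases had a median of -0.16, those of 1000 to 2000 bases -0.067, and those of at least 6000 bases 0.098. Under 1000 bases, 351 of 704 tested genes were called lower and 119 higher. From 6000 bases on, 292 of 1435 were called lower and 628 higher. Of the 43 proteasome genes, 8 have transcripts under 1000 bases (median -0.29), 23 have 1000 to 2000 (median -0.29) and Psme4 has 6491. The part of level and length in the result was not tested beyond the alternatives that follow. With the trend with level taken out, the median of the 43 genes was -0.23, 39 were lower and Psme4 was at 0.33. With the trends with transcript length and GC content taken out, an alternative added after the data were seen, the median was -0.19, 37 were lower and Psme4 was at 0.24. The medians of 3 classes then changed by over 1.5 times, to -0.19 in the core, -0.10 in the activators and -0.15 in the inhibitor and chaperones. They were -0.18 in the ATPases and -0.19 in the Psmd genes, with all 14 core and all 6 ATPase genes still called lower.

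The levels themselves differed widely between subunits that the finished particle holds in equal numbers. Per kilobase of the principal transcript, the 14 core genes ran from 52.3 (Psma3) to 191 (Psma7) CPM per kb in shMyb, and from 67.4 to 239.8 in shLuc, with the same genes at both ends. Psma6 was second in both groups, at 166 CPM per kb in shMyb and 227 in shLuc. The ATPase genes ran from 60.0 (Psmc6) to 127 (Psmc1) CPM per kb in shMyb and from 71.8 to 151 in shLuc. Among the Psmd genes, Psmd8 was highest in shMyb at 115 CPM per kb, against 118 in shLuc, and Psmd2 was highest in shLuc at 133, with 111 in shMyb. The chaperone gene Psmd9 was lowest, at 12.4 and 13.6 CPM per kb in shMyb and 13.3 and 14.1 in shLuc. Neighbours such as Psmb7 and Psma1 (136 and 135 CPM per kb in shMyb, 174 and 174 in shLuc) did not separate beyond the spread of their libraries. The activators Psme1, Psme2 and Psme3 stood at 147, 127 and 104 CPM per kb in shMyb and 162, 152 and 122 in shLuc, and Psme4 at 70.4 in shMyb and 59.6 in shLuc. These levels depend on the transcript taken as the length, and with all annotated exons Psma6 ranked 1 and Psma7 16 of the 43 in shLuc.

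**Figure D4:**
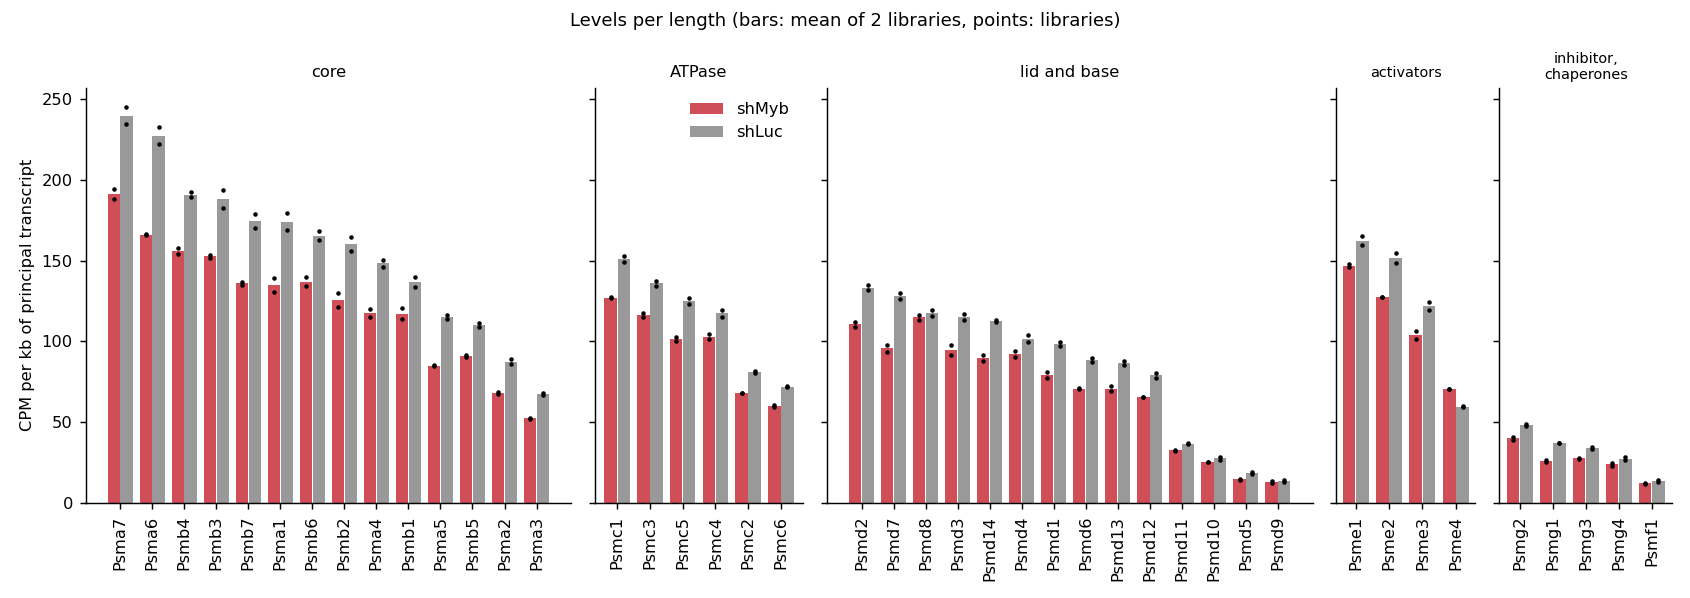
CPM per kilobase of the principal transcript in shMyb (red, left) and shLuc (grey, right); bars are means of 2 libraries and points the libraries. Core genes run from 52.3 to 191 in shMyb. Psmd5, Psmd9, Psmd10, Psmf1 and the Psmg genes stand far below most subunits, as does the lid gene Psmd11, at 32.6 in shMyb and 36.8 in shLuc.

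Genes that work with the proteasome were taken from short lists of textbook members, chosen with earlier results of these data known. The subunits named outside the Psm series, the ubiquitin receptor gene Adrm1 (-0.24) and Shfm1 (-0.19), a small lid subunit also named Sem1, fell, 2 of 2. Among 5 assembly and associated factors 3 fell and 1 rose, beside 31.7% called lower and 30.6% higher over all tested genes. The core maturation gene Pomp (-0.14), the nuclear import factor gene Akirin2 (-0.14) and the thioredoxin-like gene Txnl1 (-0.42) fell. With transcript length and GC content taken out Shfm1, Pomp and Akirin2 were no longer called (-0.065, -0.046 and -0.011), and the last 2 also not with library totals (-0.080 for both). Akirin2 was not called with DESeq2 either (adjusted p = 0.0503) nor without shLuc replicate 1 (-0.12), and Pomp not without shLuc replicate 2 (-0.10). The gene that rose was AI314180, which RefSeq names Ecpas, a scaffold that binds the regulatory particle to the core (known from its yeast counterpart, Ecm29). It had 527 and 520.1 CPM in shMyb and 448 and 445 CPM in shLuc (log2 fold change 0.23, SE 0.036, edgeR adjusted p = 5.20e-06), and its principal transcript has 7045 bases. Both shMyb libraries lay above both shLuc libraries, as for Psme4.

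All 4 genes for deubiquitylases and ligases that act on the particle fell, Uchl5 (-0.39), Ube3c (-0.29), Usp14 (-0.20) and Ube3a (-0.18). Beside this list and the next, 31.7% of all tested genes were called lower and 30.6% higher. Of 7 tested genes for ubiquitin shuttles 5 fell, among them Ubqln2 (-0.52), Ubqln1 (-0.28) and Rad23b (-0.25), and 1 rose, Nub1 (0.095, edgeR adjusted p = 0.0364), a call that ended with DESeq2 (adjusted p = 0.128), with the replicate block (adjusted p = 0.0857), with no filter on low counts (adjusted p = 0.101), at an adjusted p below 0.01, without shLuc replicate 1 (0.030) and without shMyb replicate 1 (0.081).

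The genes for transcriptional control of the proteasome are given next. Nfe2l1, whose protein raises subunit genes, had 76.9 and 77.1 CPM in shMyb and 74.0 and 71.7 CPM in shLuc (log2 fold change 0.080, SE 0.040, edgeR adjusted p = 0.0843). It was not called here, and it was called higher with library totals (0.14), with the 1 CPM filter (0.092), with the crossed block (0.080) and with the trend with level taken out (0.12). Nfe2l2, its relative in the oxidative stress response, was at 0.064 (edgeR adjusted p = 0.148), and it too was called higher with library totals (0.13) and with either trend taken out (0.11 and 0.12). Of the 9 genes of this list 3 fell, the p97 gene Vcp (-0.25), which draws Nfe2l1 out of the endoplasmic reticulum, the glycosylation gene Stt3a (-0.31) and Nfyc (-0.16), and 2 rose, Nfya (0.099) and Keap1 (0.090). Over all tested genes 31.7% were called lower and 30.6% higher, close to the share lower and above the share higher in this list. The rises of Nfya and Keap1 were lost with DESeq2 (adjusted p = 0.0503 and 0.184), where 0 of the list were higher, and with the replicate block (adjusted p = 0.0798 and 0.114). They were also lost with no filter on low counts (adjusted p = 0.0737 and 0.153) and at an adjusted p below 0.01, and that of Keap1 with RLE size factors, the non-robust fit and limma-voom (adjusted p = 0.0533, 0.0515 and 0.0512). Both also lost them without shLuc replicate 1, shLuc replicate 2 or shMyb replicate 1 (log2 fold changes of 0.067 to 0.10), and Keap1 without shMyb replicate 2 (0.072). With library totals 4 of the list were higher and 2 lower.

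**Figure D5:**
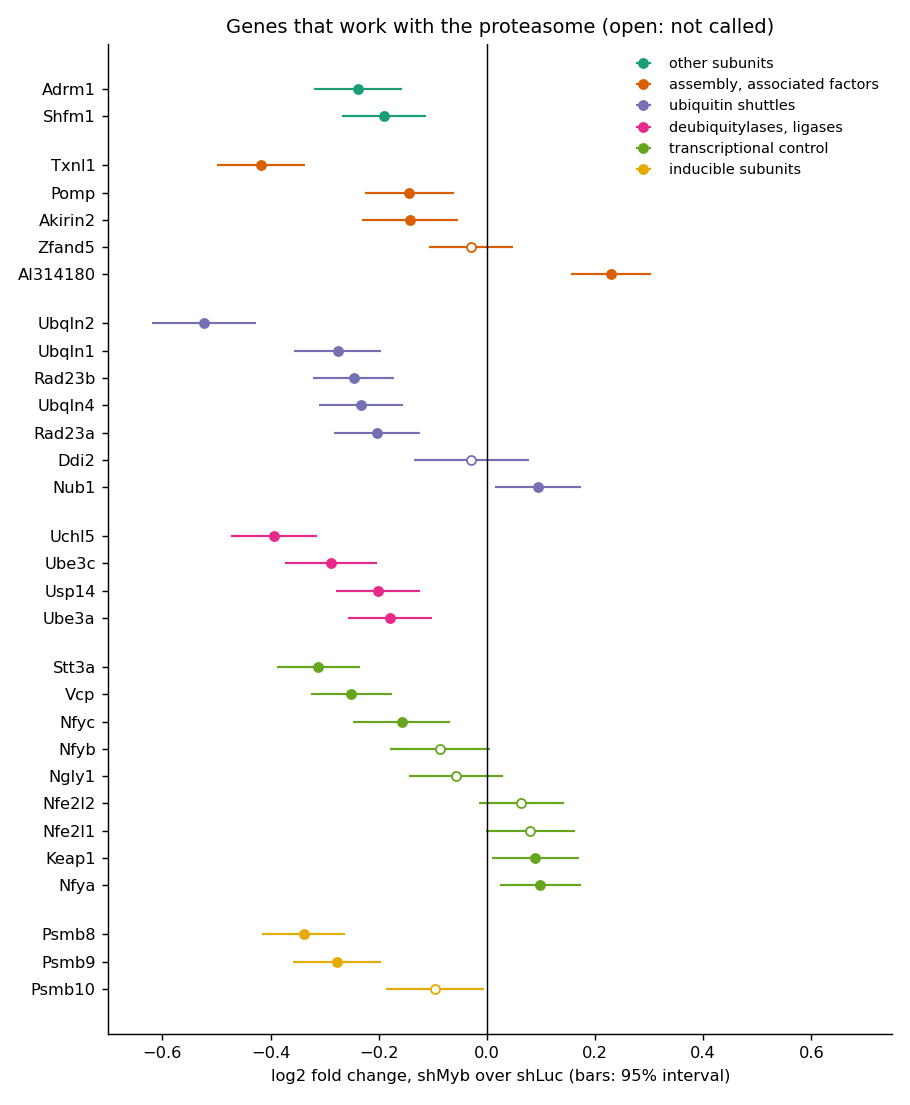
Log2 fold change, shMyb over shLuc, with 95% intervals, of genes that work with the proteasome, by list; open points were not called. Most lie below 0, and AI314180 at 0.23 lies farthest above it.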

How the data were processed

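RNA-seq of 4 libraries, 2 per group, was analysed from raw read counts per gene symbol that the authors deposited, 1 library per file with 23420 rows. Tools listed in the submitters' processing notes are HTSeq, STAR, FastQC and DESeq2, and the build is mm10, without versions or roles. Annotation and strand setting: not given in the sources used here. Groups and replicate numbers came from the titles. From the counts, genes were kept by filterByExpr (minimum count 10, 12610 of 16832 genes with a count), scaled by TMM and tested with edgeR 4.0.16 in R 4.3.3 (glmQLFit with robust=TRUE, glmQLFTest, a single group term). Benjamini-Hochberg adjustment ran over all tested genes, with calls below 0.05. The biological coefficient of variation was 2.90%. A standard error is the log2 fold change divided by the square root of F. The test was checked on simulated counts drawn from the kind of model it fits, with dispersions estimated in these same libraries. Such a check cannot show how well that model holds for the data. Library totals ran from 36573743 to 44682954 counts.

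Coordinates (1-based) and lengths are from GENCODE M21 (GRCm38, the assembly of mm10). Levels between genes used the APPRIS principal transcript. The rule for full values took the catalytic genes, the 2 smallest p and the gene farthest from the median in each class, every activator, genes called against the majority, Nfe2l1 and Myb. Other genes given library values were chosen after their values were seen. The genes and lists were chosen with earlier results of these data known. The alternatives were RLE scaling, library totals, DESeq2 1.42.0, no filter, limma-voom (limma 3.58.1), a filter of 1 CPM in 2 libraries, the non-robust fit, a replicate block, each library left out, an adjusted p below 0.01 and the trend with level taken out by loess (span 0.3). A crossed block and the trends with transcript length and GC content (known for 11988 tested genes) were added after the data were seen. Same-numbered libraries deviated from their group means with a correlation of -0.19 over genes, so the numbers were not taken as pairs. Results for 1 list of ubiquitin pathway genes are not reported here.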

Additional observations from a re-analysis of the deposited data

How the results depend on the processing

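Of the 43 tested proteasome genes, 36 kept their direction and their call under all 16 other settings. The number called lower was 36 with library totals, 37 with the trends with transcript length and GC content taken out, 38 with DESeq2 and at an adjusted p below 0.01, 39 with the replicate block (40 with the crossed block, where 4335 genes were lower and 4258 higher in all), and 37 to 40 with a library left out. Psme4 was the 1 gene called higher each time. The median log2 fold change of the members was -0.22 with library totals, -0.23 with the trend with expression level taken out, -0.19 with the trends with transcript length and GC content taken out, and -0.32 to -0.27 with a library left out. Of the inhibitor and chaperones class, 3 of 5 were called lower with library totals and with the length and GC trends, and 3 to 5 with a library left out. The sign of Psmd8 turned with library totals (0.029), the level trend (0.012) and the length and GC trends (0.0087), none called. The sign of Psmd10 turned with the length and GC trends (0.029, not called), as did that of Keap1 (-0.031). The causes were not tested. Over all genes, library totals gave 60.1% of calls higher, against 49.1% with TMM, and a median of 0.068. With 1 library left out, the lone library of a group is assumed to vary like the other group. The design has 2 libraries per group of 1 line, and shifts in total RNA per cell are not measured by scaled counts.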

Other observations

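Other cytosolic complexes showed similar steps in the same libraries. The COP9 signalosome, whose subunits share folds with the proteasome lid and which removes Nedd8 from ubiquitin ligases, had 8 of 9 genes lower and none higher, at a median log2 fold change of -0.25. Its protease gene Cops5 had 90.1 and 87.0 CPM in shMyb and 109 and 115 CPM in shLuc (-0.34, edgeR adjusted p = 5.15e-08). The CCT chaperonin, which folds actin and tubulin, had all 8 genes lower, at a median of -0.37. Cct6a had 239 and 237 CPM in shMyb and 330.5 and 342 CPM in shLuc (-0.50, edgeR adjusted p = 1.30e-11). Over all tested genes 31.7% were called lower and 30.6% higher. The CCT genes had mean levels of 287 to 679 CPM. Among all tested genes of at least 300 CPM, 57.5% were lower, at a median of -0.13. With the trends with transcript length and GC content taken out, the medians were -0.18 for the COP9 signalosome and -0.31 for CCT, with 8 genes lower in each. Cct6a had no known GC content, so no trend was taken out of its counts in that setting. These 2 complexes were listed beside the proteasome with earlier results of these data known, and no difference between complexes was tested.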
